A study of Mus musculus with 16 samples.

Results

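The mitochondrial carriers of the Slc25 family were examined in skeletal muscle RNA sequencing of 16 male C57BL/6J mice. The members were all genes of the mRNA table whose name begins with Slc25a, with the counts of their transcripts summed per name. This gave 47 names with 228 transcripts among 23235 gene names in the table, and 40 carriers had a mean of 10 or more counts over the 16 mice, as did 14869 genes in all. The mice were 6 weeks old at purchase and fell into 4 groups of 4. The control group ate a normal diet. The HFD group ate a high-fat diet with 60% fat for 8 weeks before the treatment period. The HFD + RSV group received resveratrol (RSV), a plant polyphenol, and the HFD + metformin group received metformin, a drug for type 2 diabetes, each for 6 weeks after the same 8 weeks of high-fat diet. The labels name neither the muscle nor a batch, and the names of all HFD mice share a leading number that no mouse of another group carries, so that a cage or a batch cannot be told apart from the HFD group.

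Carriers of this family are small proteins of the inner mitochondrial membrane that exchange nucleotides, phosphate, organic acids, amino acids, acylcarnitine, cofactors and iron between the cytosol and the matrix. Most are built from 3 similar repeats of paired transmembrane helices and reach the inner membrane through the TIM22 import route. In muscle, the adenine nucleotide and phosphate carriers serve ATP synthesis, the aspartate-glutamate and oxoglutarate carriers form the malate-aspartate shuttle, and the carnitine-acylcarnitine carrier brings in fatty acids for oxidation.

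Each library held 20281801 to 34021101 counts over the mRNA and lncRNA tables, and the carriers took 0.362% to 0.466% of the mRNA counts of a mouse. The labelled tissue matched its markers, with a summed FPKM (fragment counts scaled to transcript length and library size) of 8 skeletal muscle genes from 24213 to 36976, while 4 retina genes (the extraction note of the labels refers to retinas) summed to 0.126 to 0.622. Some libraries stood apart. Control replicate 3 and HFD + metformin replicate 3 were the highest of all 16 mice in 7 white adipocyte markers (4551 and 3971 FPKM summed), and HFD + RSV replicate 2 was the highest in 5 Schwann cell markers (115 FPKM). Slow-fibre markers (7 genes) summed to 24.5 FPKM in control replicate 1 and to 430 to 966 in the other 3 control mice.

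Per transcript length, Slc25a4 was the most abundant carrier. Slc25a4 encodes Ant1, the adenine nucleotide translocator of heart and muscle that exchanges ADP for ATP. Its summed FPKM had a median of 950.3 over the 16 mice and a range of 680 to 1168. Slc25a3, the phosphate carrier, came second with a median of 266 (215 to 360.0), and Slc25a11, the 2-oxoglutarate-malate carrier, next with 84.6 (70.9 to 110). The ranges of these 3 did not overlap. Slc25a12, the muscle form of the aspartate-glutamate carrier, followed at 61.8 (39.0 to 104) and lay below Slc25a11 in 15 of the 16 mice. Its highest value, in HFD replicate 3, came from 5117 counts assigned to a short transcript (ENSMUST00000184169, 2392 bases) that was at 0 in every other mouse, so that its FPKM stood out there and its count did not.

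The next carriers were Slc25a25 (39.7 FPKM), which exchanges ATP-Mg for phosphate under calcium control, Slc25a20 (39.6), the carnitine-acylcarnitine carrier, Slc25a5 (25.4), the widely expressed translocator Ant2, and Slc25a36 (23.3), a pyrimidine nucleotide carrier. Slc25a25 exceeded Slc25a20 in only 7 of 16 mice, so the order of these neighbours did not hold across mice. From Slc25a11 downwards, no neighbours among the 40 had ranges that did not overlap. In counts, Slc25a4, Slc25a3, Slc25a12 and Slc25a11 together took a median of 79.2% of all carrier counts, with the lowest share, 59.6%, in control replicate 3. At the lower end, Slc25a13 (citrin, the aspartate-glutamate carrier of liver) had a median of 0.604 FPKM and Slc25a2, an ornithine carrier, 0.503.

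**Figure D1:**
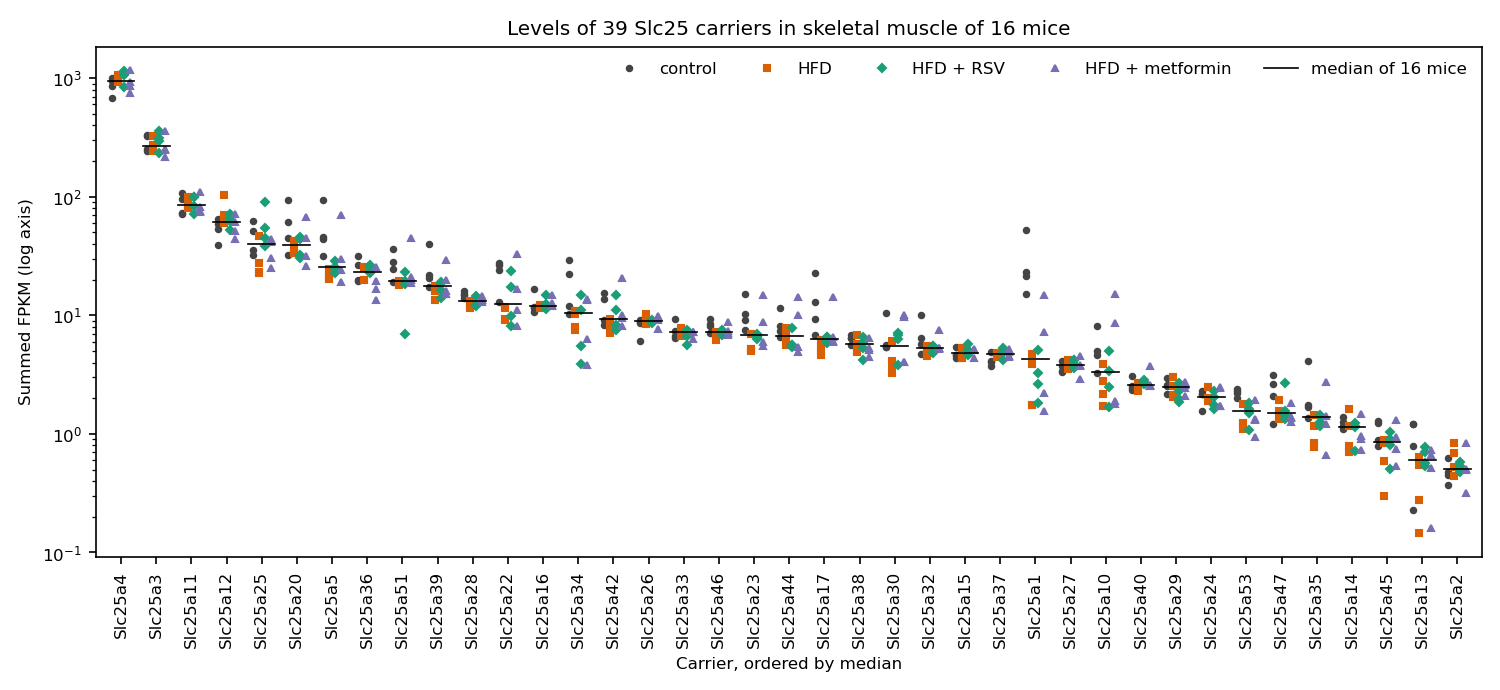
Summed FPKM (log axis) of 39 carriers in each of the 16 mice, ordered by median (black line); symbols and colours mark the 4 groups. Slc25a4 (median 950.3) and Slc25a3 (median 266) lie above all other carriers, and Slc25a1 has control values of 15.01 to 52.2, above those of the other 3 groups at 1.57 to 14.98.

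The rule kept Slc25a2 (mean 19.9 counts) as the lowest carrier and left out Slc25a48 (7.94) as the highest below it. Of the 7 names left out, Slc25a48 had the widest range. It had 10, 19, 49 and 7 counts in the control mice, 0 in every HFD mouse, 0, 0, 1 and 0 in the HFD + RSV mice and 8, 0, 33 and 0 in the HFD + metformin mice. Its highest counts, 49 and 33, were those of the 2 libraries highest in adipocyte markers. The main fit did not test Slc25a48, which was below the count minimum. Its value in the fit without a filter on low counts is not given here. The other 6 names, Slc25a18, Slc25a43, Slc25a21, Slc25a31, Slc25a41 and Slc25a5-ps, had at most 17 counts in any mouse. Slc25a5-ps is a pseudogene of Slc25a5, and how reads shared by near-identical copies were assigned is not given in the sources used here, so the level of Slc25a5 is uncertain to that extent.

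Feeding a high-fat diet was compared with the normal diet first. At an adjusted P < 0.05 over all genes (edgeR quasi-likelihood test with Benjamini-Hochberg adjustment), 2 of 40 carriers differed, beside 2.57% of all genes tested. Both were lower in the HFD group, beside 1.19% of all genes, and 0 were higher, beside 1.38%. The 2 were Slc25a1, the citrate carrier that supplies citrate for fatty acid synthesis in the cytosol, and Slc25a17, a carrier of peroxisomes for CoA, FAD and NAD. At an unadjusted P < 0.05, 12 of 40 carriers differed, beside 24.4% of all genes, and 10 of them were lower, beside 12.6%. A fold rule (unadjusted P < 0.05 and an absolute log2 fold change above 1) took 5 of 40, Slc25a1, Slc25a5, Slc25a13, Slc25a17 and Slc25a22, beside 4.66% of all genes. The median log2 fold change (log2FC) of the carriers was −0.19, that of all genes −0.02, and 23 of 40 carriers were below 0, beside 52.3% of all genes. Without any 1 of control replicates 2 and 3 and HFD replicates 1 to 4, 0 carriers passed the adjusted threshold, beside 18 to 108 of all 14869 genes. Without control replicate 4 only Slc25a1 did, beside 120 of all genes, and without control replicate 1 there were 6, beside 804. With DESeq2 the count was 6, beside 10.4% of all genes.

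Slc25a1 had the largest difference of the 40. In CPM (counts scaled to the TMM-normalised library size), it was at 45.1, 36.1, 80.01 and 25.4 in the control mice, and at 2.85, 2.82, 6.85 and 7.07 in the HFD mice. The HFD + RSV mice were at 4.29, 5.16, 8.57 and 2.82, and the HFD + metformin mice at 11.0, 2.39, 22.4 and 3.19. Every control mouse lay above every mouse on the high-fat diet, whatever its treatment. The log2FC of HFD versus control was −3.25 ± 0.66 (SE, n = 4 mice in each group), a 9.53-fold lower level (edgeR adjusted P = 0.0324). Over 17 alternatives the log2FC ranged from −3.48 to −2.86 and the adjusted P from 1.32e-05 to 0.100, with the threshold passed in 11. Slc25a1 lies at chr16:17925223-17928219 on the minus strand (GRCm38).

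Slc25a17 was at 13.8, 23.7, 38.1 and 16.9 CPM in the control group and at 9.60, 11.5, 9.98 and 11.6 in the HFD group. The groups did not overlap, and the log2FC was −1.12 ± 0.28 (edgeR adjusted P = 0.0496). The value lay just under the threshold and passed it in 6 of 17 alternatives. Control replicate 3 was the highest control mouse, and without it the log2FC was −0.77 (adjusted P = 0.153). Slc25a17 lies at chr15:81318911-81360812 on the minus strand. The HFD + RSV mice, at 11.2 to 13.4 CPM, also lay below all control mice, and HFD + metformin replicate 3 stood at 23.7 against 12.0 to 12.3 in the other mice of its group.

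A further 4 carriers had an adjusted P between 0.05 and 0.07 and groups that did not overlap. Slc25a5 was at 47.0, 58.7, 117 and 60.2 CPM in the control mice and at 32.7, 30.8, 30.7 and 33.9 in the HFD mice, with a log2FC of −1.14 ± 0.31 (adjusted P = 0.0627). Slc25a23, an ATP-Mg and phosphate carrier regulated by calcium, was at 22.2 to 44.5 in the control group and 14.3 to 18.0 in the HFD group (log2FC −0.93 ± 0.26, adjusted P = 0.0653). Slc25a22, a glutamate carrier, was at 28.1, 49.6, 25.6 and 39.5 in the control mice and 18.1, 20.7, 15.8 and 13.6 in the HFD mice (log2FC −1.07 ± 0.28, adjusted P = 0.0557). These 3 passed the threshold with DESeq2, in the fit of the 12 mice without metformin and in the fit of the 2 groups alone. Those fits called 1550, 1644 and 964 of all 14869 genes, beside 382 in the main fit. Each of the 3 carriers passed in 5 of 17 alternatives. Their highest edgeR adjusted P values were 0.197 (Slc25a5), 0.204 (Slc25a23) and 0.131 (Slc25a22). Slc25a37 (mitoferrin-1, which imports iron for haem and iron-sulphur clusters) was on the other side, at 22.6 to 26.7 CPM in the control mice and 28.0 to 32.0 in the HFD mice. Its log2FC was small, 0.33 ± 0.08 (adjusted P = 0.0548), with the higher values in all 4 HFD mice. Slc25a37 also passed the threshold with DESeq2 (adjusted P = 0.00575), in the 12 mice (0.0241) and in the 2 groups alone (0.0484). It too passed in 5 of 17 alternatives. Without TMM scaling, which moved the median of all genes to −0.18, its log2FC was 0.17 and its adjusted P 0.241.

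The remaining carriers at an unadjusted P < 0.05 had groups that overlapped. Slc25a26, which brings S-adenosylmethionine into the matrix, had a log2FC of 0.36 ± 0.13. Slc25a35 (an orphan carrier, −0.88 ± 0.35), Slc25a13 (−1.05 ± 0.46), Slc25a39 (which imports glutathione, −0.46 ± 0.20), Slc25a53 (an orphan carrier, −0.36 ± 0.16) and Slc25a32 (a folate and FAD carrier, −0.32 ± 0.15) had adjusted P values from 0.126 (Slc25a26) to 0.198 (Slc25a32). In all, 8 of 40 carriers had groups that did not overlap, beside 18.6% of all genes. They were the 6 above with Slc25a4 and Slc25a45, an orphan carrier that was at 2.09 to 2.62 CPM in the control group and 0.432 to 2.02 in the HFD group.

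The abundant carriers did not pass the test. Slc25a4 was at 2000, 2112, 1318 and 1968 CPM in the control mice and at 2288, 2598, 2191 and 2217 in the HFD mice, so that the groups did not overlap, yet the log2FC was 0.33 ± 0.19 (adjusted P = 0.302). Slc25a3 had 349 to 511 CPM and 403 to 566 CPM (log2FC 0.07 ± 0.19, adjusted P = 0.862). Slc25a12 had 231 to 414 and 389 to 519 (0.35 ± 0.21, adjusted P = 0.317), and Slc25a20 70.9 to 169 and 73.0 to 96.6 (−0.48 ± 0.28, adjusted P = 0.2998). For these 4 carriers the differences were below 2 SE, so that with their spread between mice they were not detectable here. On data simulated from these libraries, 6% of genes changed by a log2FC of 0.5 were recovered, 54% at 1 and 89.5% at 2. The simulation changed 200 of 14869 genes, drawn from all levels, whereas 24.4% of genes had an unadjusted P < 0.05 in the data. Its recovery is therefore not that of these 4 abundant carriers.

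**Figure D2:**
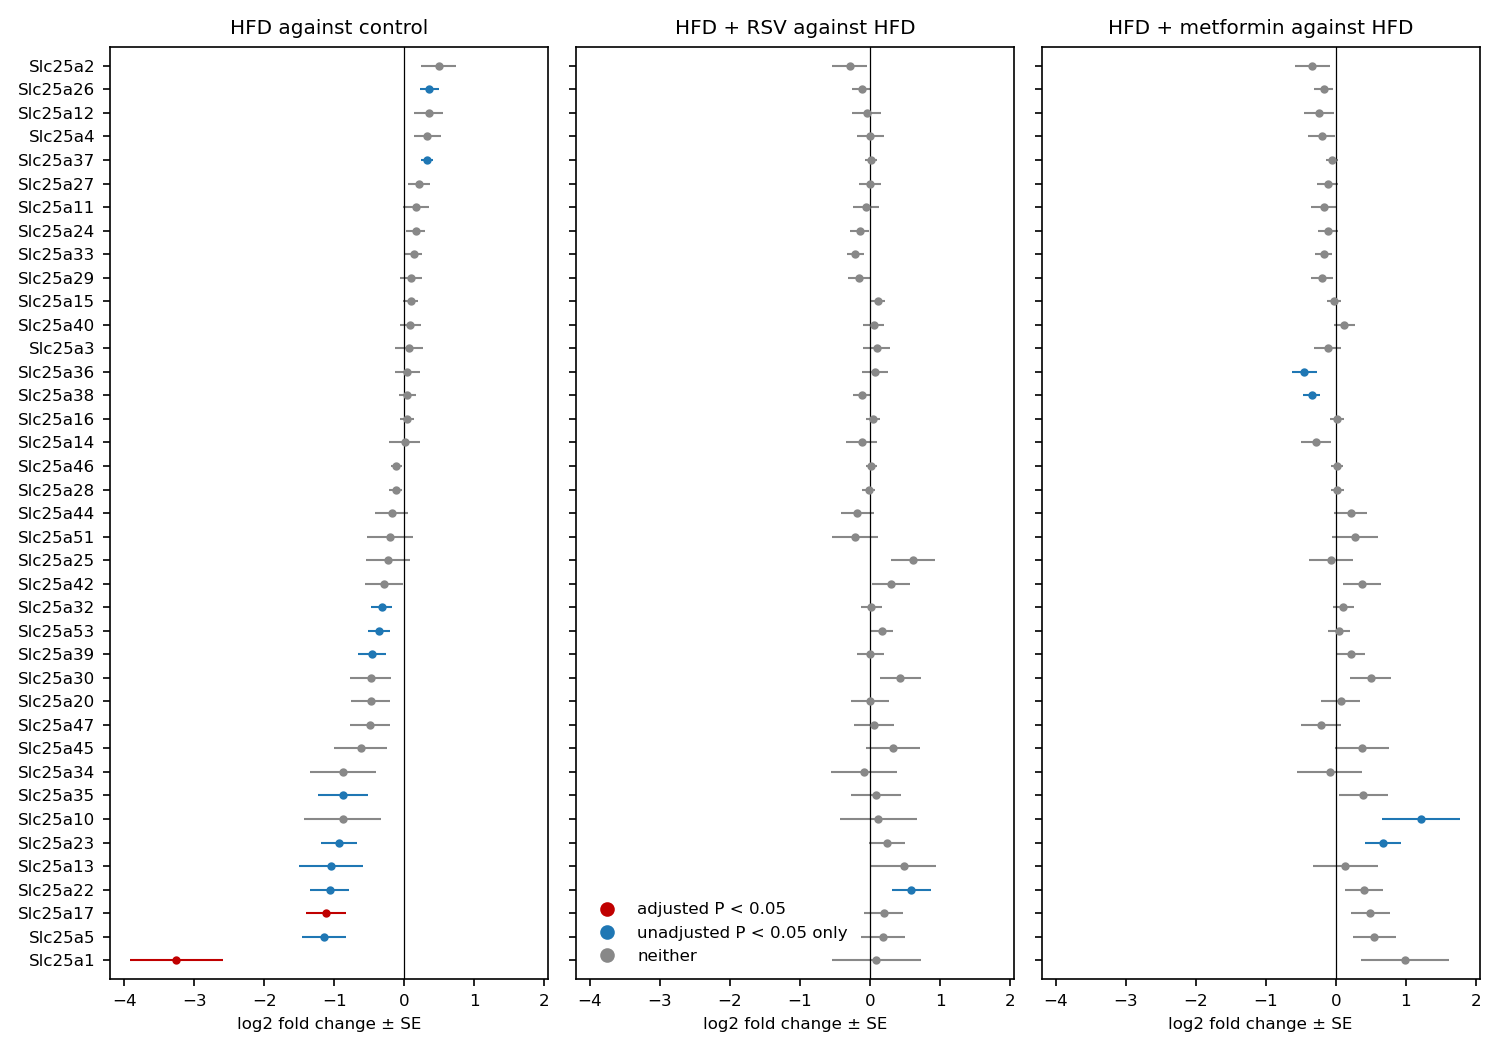
log2 fold change with SE of 39 carriers (vertical axis, ordered by the first panel) in 3 comparisons, from 1 edgeR fit of 16 mice. Red marks an adjusted P < 0.05, blue an unadjusted P < 0.05 only. Slc25a1 (−3.25) and Slc25a17 (−1.12) are the red points, both in HFD versus control, and no carrier is red in the panels of the treated groups.

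Grouped by cargo, 1 of 6 tested carriers of di- and tricarboxylates and of aspartate-glutamate was called (Slc25a1), and the median log2FC of this group was −0.96, with 4 of 6 below 0. Among the 9 nucleotide and cofactor carriers 1 was called (Slc25a17), with a median of −0.29. The adenine nucleotide and phosphate carriers had 0 of 6 called and a median of −0.08, spanning −1.14 (Slc25a5) to 0.33 (Slc25a4). The 6 amino acid and methyl donor carriers had 0 called and a median of 0.10, and the 4 iron and glutathione carriers 0 called and a median of −0.02. The 4 carriers whose cargo is not settled were all below 0, with a median of −0.75 and 0 called. The 3 uncoupling-protein-like carriers had a median of 0.00 and 0 called. Of all genes tested, 2.57% were called and 52.3% were below 0 in this comparison. With 3 to 9 carriers in a group, these counts do not set 1 cargo apart from all genes.

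The differences ran beside markers of other cell types. The 7 white adipocyte markers summed to 912 to 4551 FPKM in the control group and to 146 to 847 in the HFD group, without overlap, although 0 of 7 passed the adjusted threshold (3 at an unadjusted P < 0.05) and Lep had a positive value (1.39 ± 1.15). Adiponectin (Adipoq) was at 49.6 to 270.4 FPKM in the control mice and 6.84 to 64.9 in the HFD mice. Of the 6 brown adipocyte markers, 5 had a negative log2FC (median of the 6, −3.73), Cidea and Elovl3 were called lower, and Cox8b had a positive value (0.31 ± 0.27). Their summed level overlapped, at 143 to 778 FPKM in the control group and 137 to 235 in the HFD group. Ucp1 added at most 0.574 FPKM to the sum of any HFD mouse, so the sum does not follow each marker. Ucp1 was at 5.97, 22.3, 247 and 1.75 FPKM in the control mice and 0.120 to 0.574 in the HFD mice. All 7 slow-fibre markers also had negative log2FC (median −3.55), at an unadjusted P < 0.05 and with 0 called. The 5 Schwann cell markers summed to 14.9 to 56.6 and 10.1 to 13.2 FPKM, and the 4 endothelial markers to 61.4 to 82.3 and 52.7 to 58.8, both without overlap, with 4 of 5 and 3 of 4 at an unadjusted P < 0.05 and 0 called. The 6 erythroid markers overlapped, at 435 to 1291 and 432 to 557 FPKM. In bulk tissue, fewer cells of a type and less RNA per cell cannot be told apart.

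Among the 4 mice of each group on the high-fat diet, Slc25a1 and Slc25a10 (the dicarboxylate carrier) ranked the mice in the same order as the white adipocyte marker sum in all 3 groups, which 0.747% of all genes tested did. In the control group, Slc25a1 did not have that order. Control replicates 1, 2 and 4, with marker sums of 1066, 912 and 1553 FPKM, had 25.4 to 45.1 CPM of Slc25a1. HFD replicate 4 (sum 847), HFD + RSV replicate 3 (986) and HFD + metformin replicate 1 (1405) had 7.07, 8.57 and 11.0 CPM. Per FPKM of Adipoq, Slc25a1 overlapped between the control group (0.148 to 0.431) and the HFD group (0.0731 to 0.257), and HFD + metformin replicate 2 (0.663) lay above every control mouse. These comparisons were chosen after the values were known, and the part of adipocyte RNA in the Slc25a1 difference was not tested.

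Control replicate 3 was the highest control mouse for 18 of 40 carriers, beside 32.2% of all genes, and HFD + metformin replicate 3 the highest of its group for 20 of 40, beside 33.9%. Both statements held for 14 carriers, among them Slc25a1, Slc25a5, Slc25a10, Slc25a16, Slc25a17, Slc25a20, Slc25a23, Slc25a30, Slc25a32, Slc25a35, Slc25a39, Slc25a40 and Slc25a44. Control replicate 3 was the lowest of its group for 13 of 40 carriers, beside 28.7% of all genes. For HFD + metformin replicate 3 this was 11 of 40, beside 31.8%. Both libraries were the lowest of their groups for 8 carriers: Slc25a3, Slc25a4, Slc25a11, Slc25a12, Slc25a15, Slc25a27, Slc25a28 and Slc25a47. How many of all genes were highest, or lowest, in both libraries was not counted. Without these 2 libraries, an alternative chosen after seeing the data, 7 of 40 carriers passed the adjusted threshold for HFD versus control, beside 3.95% of all genes, of which 6 were lower (2.09% of all genes) and 1 higher (1.86%). The lower ones were Slc25a1 (log2FC −2.86), Slc25a22 (−1.20), Slc25a5 (−0.79), Slc25a17 (−0.77), Slc25a23 (−0.68) and Slc25a13 (−1.38), and the higher one was Slc25a37 (0.32). The part of the adipocyte, slow-fibre, Schwann cell and endothelial markers in these differences was not tested.

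**Figure D3:**
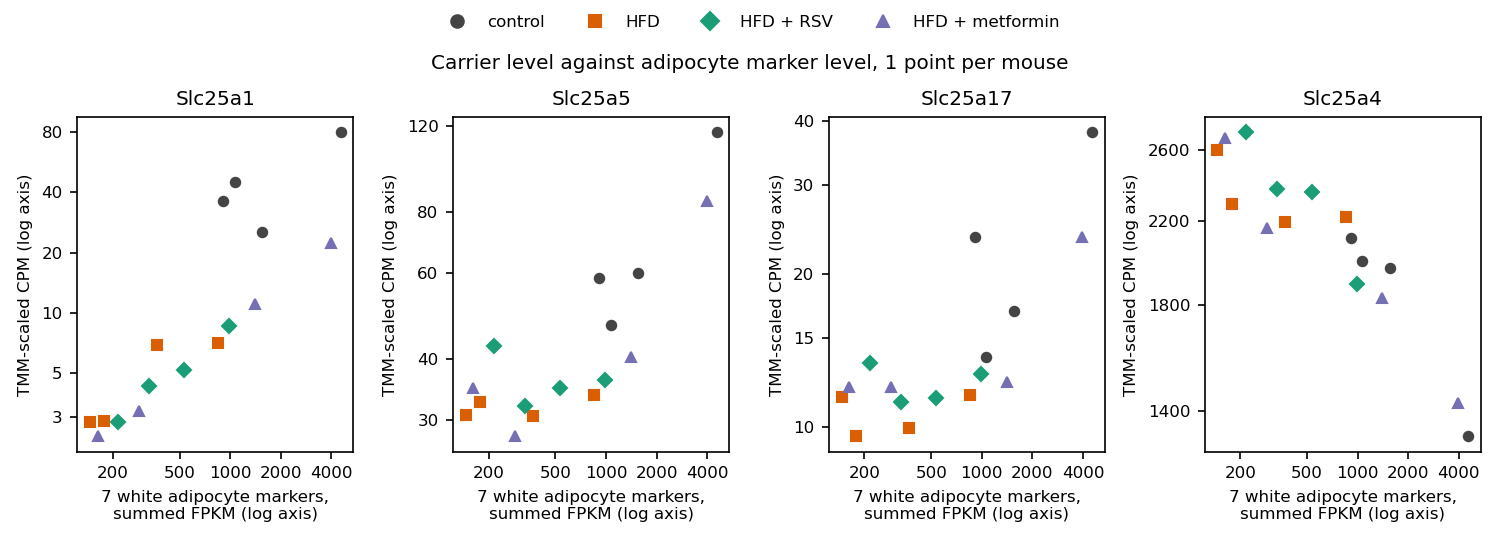
TMM-scaled CPM of 4 carriers (vertical, log axis) against the summed FPKM of 7 white adipocyte markers (horizontal, log axis), with 1 point per mouse and colours for the 4 groups. The 2 libraries with the highest marker sums, 4551 and 3971, have the highest Slc25a5 and the lowest Slc25a4 of all mice, and every control mouse has more Slc25a1 than any mouse on the high-fat diet.

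The sequence upstream of Slc25a1, Slc25a17 and Slc25a5 is shown because these carriers had lower values in all 4 HFD mice and were highest in the same 2 libraries. Slc25a23 also met both conditions, and its sequence is not shown. RefSeq (GRCm38.p6) gave an upstream sequence for 30 of the 40 carriers. The bases are the 250 before the RefSeq start and, for Slc25a17, the 203 of them that lie outside the GENCODE gene. Capitals mark matches on either strand. The GC box was searched as the letters GGGCGG. The CCAAT box was searched by the letters of its name. The E-box was searched as CACGTG, and no match overlapped another here.
Slc25a1, chr16:17928220-17928469, minus strand: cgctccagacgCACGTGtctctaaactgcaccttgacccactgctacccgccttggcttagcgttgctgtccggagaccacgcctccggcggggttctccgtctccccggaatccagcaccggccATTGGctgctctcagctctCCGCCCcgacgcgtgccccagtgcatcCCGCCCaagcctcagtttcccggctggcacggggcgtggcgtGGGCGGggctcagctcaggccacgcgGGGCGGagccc
Slc25a17, chr15:81360813-81361015, minus strand: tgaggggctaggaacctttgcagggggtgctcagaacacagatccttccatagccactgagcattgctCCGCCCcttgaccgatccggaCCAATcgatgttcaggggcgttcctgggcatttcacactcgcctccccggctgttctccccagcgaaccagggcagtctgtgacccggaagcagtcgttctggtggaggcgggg
Slc25a5, chrX:36795347-36795596, plus strand: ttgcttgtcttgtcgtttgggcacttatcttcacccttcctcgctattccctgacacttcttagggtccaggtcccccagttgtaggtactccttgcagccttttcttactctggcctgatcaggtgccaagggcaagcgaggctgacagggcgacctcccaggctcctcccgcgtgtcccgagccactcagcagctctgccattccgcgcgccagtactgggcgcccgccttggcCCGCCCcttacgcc
The Slc25a1 window held 4 GC boxes, 1 CCAAT box and 1 E-box, that of Slc25a17 1 GC box and 1 CCAAT box, and that of Slc25a5 1 GC box. In the 250 bases before the start, a GC box occurred in 32.7% of all 32851 RefSeq windows and in 23 of the 30 carrier windows, a CCAAT box in 33.8% and 17 of 30, and an E-box in 6.02% and 6 of 30. The searched letters TCACNCCAC, a sterol regulatory element, occurred in 1.05% of all windows and in 0 of 30, and AGGTCA, a site of nuclear receptors, in 14.0% and 4 of 30. The 32851 windows were not limited to the 14869 genes tested, whereas the 30 carriers had passed the count minimum. The 2 sets are thus unlike, and their shares do not show a trait of the carriers. A match is a description of letters, not of binding.

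Genes that work with the carriers were compared from lists by role, for HFD versus control, where 2.57% of all genes tested were called. With 5 to 14 genes in a list, 1 call is not read as a trait of that list. Of 14 partner enzymes, 1 was called: Acly, the ATP-citrate lyase that cleaves the citrate exported by Slc25a1, was at 161, 189, 249.8 and 39.0 CPM in the control mice and 21.3 to 26.9 in the HFD mice (log2FC −2.71 ± 0.42, edgeR adjusted P = 0.0143). The FPKM of Slc25a1 per FPKM of Acly was 0.482 to 1.42 in the control group and 0.312 to 0.656 in the HFD group, with overlap. Of 12 other transporters of the inner membrane, 1 was called: Sfxn3, a sideroflexin, rose (log2FC 0.64 ± 0.15, adjusted P = 0.0416), from 4.36 to 5.56 FPKM in the control mice to 6.74 to 8.04 in the HFD mice. Sfxn1, the mitochondrial serine transporter, had the largest negative value of that list (−2.70 ± 0.87, adjusted P = 0.0911), and Mpc1, a subunit of the pyruvate carrier, had −0.57 ± 0.18 (adjusted P = 0.0813). Of the 12 genes of the import machinery and the 8 genes that mark mitochondrial content, 0 were called, with medians of 0.01 and 0.14. Of the 5 carriers under other gene names, 0 were called. Ucp1, the uncoupling protein of brown fat, had −7.80 ± 2.23 (adjusted P = 0.0697), Ucp2 −0.75 ± 0.25 (0.0947), and Ucp3, the form of muscle, −0.14 ± 0.15 (0.60).

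**Figure D4:**
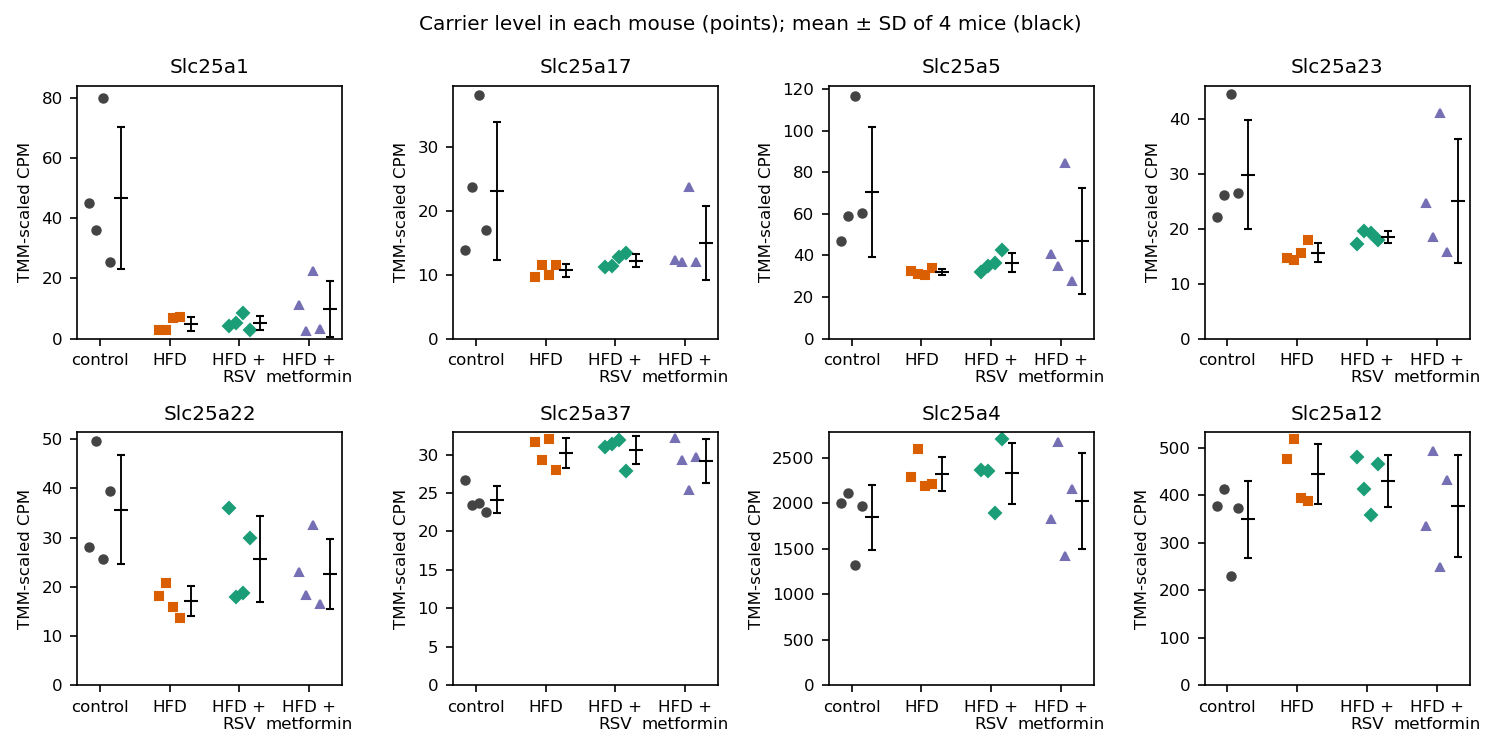
TMM-scaled CPM of 8 carriers in each mouse of the 4 groups (horizontal axis), with the mean ± SD of 4 mice in black. Slc25a1 is at 25.4 to 80.01 in the control group and at most 22.4 in any other mouse, while Slc25a37 is at 22.6 to 26.7 in the control group and 28.0 to 32.0 in the HFD group.

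The HFD + RSV group was compared with the HFD group to ask which carriers differed with resveratrol. By edgeR, 0 of 40 carriers passed the adjusted threshold, beside 0% of all genes, and 1 passed an unadjusted P < 0.05, beside 4.78%. The fold rule took 0, beside 1.02%, and DESeq2 also called 0 carriers, beside 0.0538%. That carrier was Slc25a22, at 36.0, 18.0, 18.8 and 29.95 CPM against 13.6 to 20.7 in the HFD group (log2FC 0.59 ± 0.28, edgeR adjusted P = 1.00). Next came Slc25a25, at 97.1, 193, 105 and 146 CPM against 141, 67.5, 82.0 and 63.3 (0.61 ± 0.32, adjusted P = 1.00). The highest Slc25a25 value and the lowest Slc25a51 value (24.1 CPM against 89.6 to 103 in the other mice of the group) were those of HFD + RSV replicate 2, the library highest in Schwann cell markers, and without it the log2FC of Slc25a25 was 0.39. Slc25a51 is the NAD carrier of the inner membrane.

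No carrier had groups that did not overlap, beside 4.22% of all genes. Slc25a30 (0.43 ± 0.29), Slc25a42 (a CoA carrier, 0.30 ± 0.27) and Slc25a53 (0.17 ± 0.16) had the next smallest P values among positive differences. Slc25a33 (a pyrimidine nucleotide carrier, −0.21 ± 0.12), Slc25a2 (−0.29 ± 0.25), Slc25a29 (a carrier of basic amino acids, −0.16), Slc25a24 (an ATP-Mg and phosphate carrier, −0.15) and Slc25a38 (which serves glycine import for haem synthesis, −0.12) had them among negative ones. Slc25a1 and Slc25a17 had values near those of the HFD group (5.21 ± 2.44 against 4.90 ± 2.38 CPM and 12.2 ± 1.04 against 10.7 ± 1.01, mean ± SD, n = 4). Slc25a4 had a log2FC of 0.01 ± 0.19 and Slc25a20 of 0.00 ± 0.28. The median over the carriers was 0.03, that of all genes 0.00, and the values spanned −0.29 to 0.61. Markers of other cells were higher than in the HFD group at an unadjusted P < 0.05 for 5 of 5 Schwann cell, 5 of 7 slow-fibre and 4 of 6 erythroid genes, with 0 called. The erythroid sum was 645 to 1742 FPKM (highest in replicate 2) against 432 to 557, and the part of these markers was not tested.

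In the HFD + metformin group against the HFD group, 0 of 40 carriers passed the adjusted threshold by edgeR, beside 0.0135% of all genes, and 4 passed an unadjusted P < 0.05, beside 8.09%. The fold rule took 1, Slc25a10, beside 1.66%, and DESeq2 called 0 carriers, beside 0.222%. Slc25a38 was at 8.42, 8.72, 9.06 and 9.58 CPM against 10.6, 10.9, 11.3 and 12.7 in the HFD group, without overlap (log2FC −0.35 ± 0.12, edgeR adjusted P = 0.60). Slc25a36 was at 57.1, 69.8, 77.8 and 41.7 against 69.4 to 100.4 (−0.45 ± 0.18, adjusted P = 0.613). In its lowest mouse, HFD + metformin replicate 4, 443 counts were assigned to a transcript (ENSMUST00000035024) that had at most 2 counts in every other mouse.

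Slc25a23 and Slc25a10 had the other 2 small P values, with positive differences. Slc25a23 was at 24.8, 18.5, 41.1 and 15.8 CPM against 14.3 to 18.0 (0.67 ± 0.26, adjusted P = 0.611), and Slc25a10 at 15.4, 3.44, 24.6 and 3.77 against 2.99 to 7.07 (1.22 ± 0.55, adjusted P = 0.613). In both, the higher values were those of replicates 1 and 3, the mice of the group with the most white adipocyte marker RNA (1405 and 3971 FPKM against 163 and 289). Without the 2 libraries highest in these markers, Slc25a23, Slc25a36 and Slc25a38 remained at an unadjusted P < 0.05, beside 4.2% of all genes, and Slc25a10 did not. The log2FC of Slc25a23 was then 0.33, that of Slc25a17 0.18 and that of Slc25a5 0.11. Slc25a17 was higher in every metformin mouse than in every HFD mouse, at 12.0 to 23.7 against 9.60 to 11.6 CPM (0.49 ± 0.28, adjusted P = 0.645). In all, 2 of 40 carriers had groups that did not overlap, beside 3.71% of all genes. All 6 erythroid markers were higher at an unadjusted P < 0.05, with 0 called and a sum of 611 to 2092 FPKM (highest in replicate 3) against 432 to 557, and their part was not tested. Slc25a5 (0.55 ± 0.31) and Slc25a30 (0.50 ± 0.29) completed the 5 smallest P values among positive differences, and Slc25a33 (−0.17), Slc25a2 (−0.33) and Slc25a14 (an uncoupling-protein-like carrier, −0.28) among negative ones.

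Both treated groups were also set against the control group, which they share with the HFD comparison. For the HFD + RSV group, 0 of 40 carriers passed the adjusted threshold by edgeR (0.00673% of all genes) and 7 an unadjusted P < 0.05 (16% of all genes). The fold rule took Slc25a1 alone, beside 2.5%. Slc25a1 had −3.16 ± 0.66 (adjusted P = 0.106), and 5 carriers, Slc25a1, Slc25a5, Slc25a17, Slc25a23 and Slc25a37, had groups that did not overlap, beside 11.5% of all genes. DESeq2 called 3 carriers, Slc25a1, Slc25a17 and Slc25a37, beside 2.55% of all genes. For the HFD + metformin group, 0 carriers passed (0% of all genes), and 7 an unadjusted P < 0.05 (9.56% of all genes). The fold rule again took Slc25a1 alone, beside 1.49%. Slc25a1 had −2.26 ± 0.63 (adjusted P = 0.253) and was the only carrier whose groups did not overlap, beside 3.54% of all genes. It was also the only carrier called by DESeq2, beside 0.995% of all genes. Slc25a37 had 0.34 ± 0.08 and 0.28 ± 0.08 in these comparisons, beside 0.33 in the HFD group.

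Between the treated groups, 0 of 40 carriers passed the adjusted threshold by edgeR or DESeq2 (0% of all genes by edgeR and 0.074% by DESeq2), and 2 an unadjusted P < 0.05 (4.71% of all genes). The fold rule took 0, beside 0.908%. Slc25a36 was at 92.9, 84.0, 89.1 and 87.1 CPM in the HFD + RSV group and 41.7 to 77.8 in the HFD + metformin group, without overlap (log2FC 0.52 ± 0.18, adjusted P = 0.959), as were 1.53% of all genes. The other carrier, Slc25a25, had 0.68 ± 0.32 (adjusted P = 0.959).

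Pairs of related carriers were then compared by the log2 ratio of their FPKM within each mouse. Of 24 exact two-sided permutation tests (8 ratios in 3 comparisons), 3 reached P = 0.0286, the smallest that 4 against 4 mice allow, and the smallest adjusted P was 0.229. The ratio of Slc25a4 to Slc25a5, the muscle to the general adenine nucleotide translocator, was 27.0, 23.0, 7.20 and 20.8 in the control mice and 44.1, 52.8, 44.8 and 41.8 in the HFD mice, a log2 difference of 1.39 (exact P = 0.0286). Control replicate 3 had the lowest ratio, and the other 3 control mice also lay below every HFD mouse. With RSV the ratio was 33.2 to 46.8, and with metformin 10.8 to 48.6, both overlapping the HFD group.

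The ratio of Slc25a37 to Slc25a28, the 2 mitoferrins, was 0.252 to 0.323 in the control group and 0.361 to 0.391 in the HFD group (log2 difference 0.43, exact P = 0.0286). Slc25a28 itself was at 23.1 to 26.5 CPM in the control group and 22.0 to 23.9 in the HFD group. The ratio of Slc25a12 to Slc25a13 was 452, 129, 162 and 219 in the HFD mice and 85.6 to 111 in the HFD + RSV mice (log2 difference −1.11, exact P = 0.0286), a value that rests on the low counts of Slc25a13, the carrier with 0.549 to 3.18 CPM. In counts, which do not depend on transcript length, the difference was −0.59 and the groups did not overlap either. The FPKM of Slc25a13 did not follow its counts. It had 13 counts and 0.145 FPKM in HFD replicate 1, and 26 counts and 0.644 FPKM in HFD replicate 3. The parts of the Slc25a12 and Slc25a13 transcripts in the gap between the FPKM and count values were not tested. The ratio of Slc25a22 to Slc25a18 was not formed, since Slc25a18 was below the count minimum. The other 5 pairs had groups that overlapped in all 3 comparisons.

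**Figure D5:**
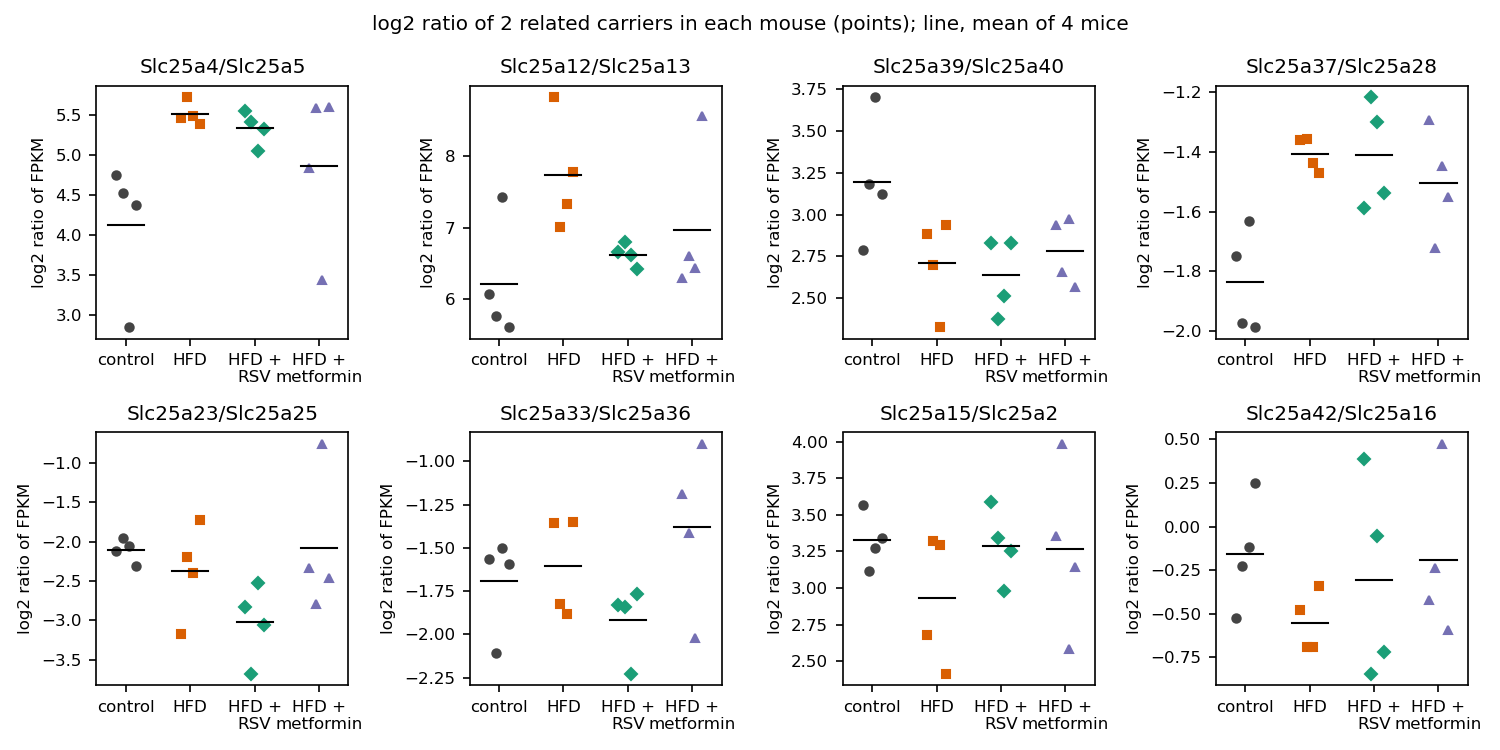
log2 ratio of the summed FPKM of 2 related carriers (vertical axis) in each mouse of the 4 groups (horizontal axis), with the mean of 4 mice as a line. The ratio of Slc25a4 to Slc25a5 is 7.20 to 27.0 (not log) in the control group and 41.8 to 52.8 in the HFD group, and that of Slc25a37 to Slc25a28 is 0.252 to 0.323 and 0.361 to 0.391.

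At the level of transcripts, 122 carrier transcripts had a mean of 10 or more counts, of 40855 transcripts tested. By edgeR, 0 passed the adjusted threshold in any of the 6 comparisons (smallest adjusted P = 0.122), also with the filter of filterByExpr, and 22 had an unadjusted P < 0.05 for HFD versus control, beside 13.7% of all transcripts, of which 0.0171% passed the adjusted threshold. How StringTie divides fragments among the transcripts of a gene is an estimate, and it differed between mice. For Slc25a51, the share of 1 of 2 nearly equal transcripts (ENSMUST00000107796, 4433 bases) ran from 0.199% to 60.9%.

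Slc25a3 has a pair of mutually exclusive exons, which are shown because the transcripts that carry them were counted separately. Exon 3A is the form of heart and muscle, and exon 3B the form of other tissues. Both lie on the minus strand (GRCm38), and both are the third of 8 exons. Capitals mark the bases that differ from the other exon, or have no partner in it, in a global alignment.
Slc25a3 exon 3A, chr10:91122207-91122331, in ENSMUST00000170810: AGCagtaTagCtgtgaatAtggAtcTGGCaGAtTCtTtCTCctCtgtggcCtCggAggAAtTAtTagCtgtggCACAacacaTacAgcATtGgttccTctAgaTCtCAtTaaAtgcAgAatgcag
Slc25a3 exon 3B, chr10:91121922-91122043, in ENSMUST00000076694 and ENSMUST00000164505: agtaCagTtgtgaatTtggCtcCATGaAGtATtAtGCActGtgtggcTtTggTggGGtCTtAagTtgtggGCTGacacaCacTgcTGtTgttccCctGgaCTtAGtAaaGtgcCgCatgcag
The exons have 125 and 122 bases, and 77 of 125 aligned positions were identical. The transcript with exon 3A held 63.3% to 82.8% of the Slc25a3 counts of a mouse. Of the counts on the 3 transcripts, those with exon 3B took 18.3%, 18.1%, 26.6% and 14.1% in the control mice and 13.0%, 16.8%, 14.9% and 17.6% in the HFD mice, with overlap. The HFD + RSV mice had 14.3% to 17.2%, and the HFD + metformin mice 17.7%, 15.2%, 29.4% and 13.8%. The highest shares, 26.6% and 29.4%, were those of the libraries highest in adipocyte markers. For this share, the smallest P of 6 exact two-sided permutation tests was 0.2. The share of ENSMUST00000076694 alone ran from 5.33% to 12.3% in control mice and from 3.97% to 4.87% in HFD + RSV mice (exact P = 0.0286), and the smallest adjusted P over all 12 tests, which were chosen after the values were seen, was 0.343.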

How the data were processed

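The members, lists and comparisons were chosen with earlier results of these data known. Per the study's methods and the submitters' processing notes, ribosomal RNA was removed, reads were cleaned with fastp, aligned with HISAT2 and counted per transcript with StringTie; the versions of fastp and HISAT2 are not given in the sources used here. The authors deposited estimated counts per transcript, which are whole numbers, and FPKM values, which equal the count scaled to transcript length and to the summed counts of both tables. Of 228 carrier transcripts, 224 had the coordinates of GENCODE M21 (GRCm38). In the mRNA table, 4 transcripts split over 2 lines were joined.

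Counts were summed per gene name, and genes with a mean of at least 10 counts were fitted with edgeR 4.0.16 in R 4.3.3 (TMM, robust quasi-likelihood, 4 groups, 16 mice). P-values were adjusted by Benjamini-Hochberg over all 14869 genes. SE is the absolute log2FC divided by the square root of the F statistic. Replicates are mice. Text values are TMM-scaled CPM, or summed FPKM where levels of different genes are compared. Ratios and shares were compared by exact two-sided permutation tests (scipy 1.17.1). Genes named were the called carriers, the 8 most abundant, the 5 with the smallest P in each direction in the first 3 comparisons, the pairs, and called members of other lists; others named were chosen after their values were seen. Scripts were tested on simulated data. The alternatives were DESeq2 1.42.0, other scalings, filters, call rules, subsets of groups, and leaving out mice. The values of 1 carrier are not reported here, although it is part of all counts and fits.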

Additional observations from a re-analysis of the deposited data

Results flagged for a closer look

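Of 156 groups of 4 mice (39 carriers in 4 groups), 8 had 1 mouse far from the other 3, by Dixon's test of the gap to the nearest mouse against the range of the group; chance flags about 5% of such groups. The number flagged was near that share, so the flags below are descriptions only. Control replicate 3 was the highest of its group in Slc25a39 (43.4 CPM, others 21.2 to 24.7). HFD + metformin replicate 3 was the highest in Slc25a17 (23.7, others 12.0 to 12.3) and Slc25a51 (158, others 87.4 to 94.9). These are the 2 libraries highest in white adipocyte markers. HFD + metformin replicate 2 was the highest in Slc25a11 (218, others 134 to 146) and Slc25a3 (607, others 357 to 392). HFD + RSV replicate 2 was the lowest in Slc25a51 (24.1, others 89.6 to 103). HFD replicate 4 was the lowest in Slc25a16, a carrier linked to CoA import (38.4, others 43.5 to 44.4), and HFD replicate 1 in Slc25a45 (0.432, others 1.86 to 2.02). No carrier differed between the HFD + RSV and HFD + metformin groups at an adjusted P < 0.05 by edgeR or DESeq2.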

How the results depend on the processing

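Numbers are of 40 carriers. For HFD versus control, 2 carriers were called; the number was 1 without a scaling factor, without a filter on low counts and with filterByExpr, 6 with DESeq2 and in the 12 mice without metformin, 5 in the 2 groups alone, 7 without the 2 libraries highest in adipocyte markers, and 0 to 6 when 1 mouse was left out. Calling at an unadjusted P < 0.05 gave 12, and with an absolute log2FC above 1 also required 5. For HFD + RSV versus HFD the unadjusted rule gave 1, for HFD + metformin versus HFD 4 (1 with the fold rule), and between the treated groups 2, in place of 0. Against the control group, the HFD + RSV group had 1 call in the 12 mice, 3 with DESeq2, 7 at an unadjusted P and 1 with the fold rule, in place of 0, and the HFD + metformin group 1 with DESeq2, 0 to 1 with 1 mouse left out, 7 at an unadjusted P and 1 with the fold rule, in place of 0. The causes were not tested. The carriers called or named for the smallest P values in the first 3 comparisons kept their direction in these fits. Without the 2 libraries, Slc25a3 for HFD versus control was at −0.04 in place of 0.07, and Slc25a20 for HFD + RSV versus HFD at 0.01 in place of 0.00. All genes called for HFD versus control numbered 382 of 14869. They numbered 188 without a scaling factor, 158 of 23235 without a filter and 374 of 15364 with filterByExpr. The number was 1550 with DESeq2, 1644 in the 12 mice, 964 in the 2 groups alone and 588 without the 2 libraries. With 1 mouse left out it was 18 to 804. For HFD + RSV versus control it was 209 in the 12 mice and 379 with DESeq2. For HFD + metformin versus control it was 148 with DESeq2 and 0 to 177 with 1 mouse left out. Shares for the unadjusted and fold rules are given above. Paralog ratios with groups that do not overlap numbered 3, and 3 to 5 with 1 mouse left out.

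No paired analysis was possible because the numbers in the mouse names are not given as pairs, and the leading number of the HFD mice occurs in no other group. With 4 mice in each group, small differences in variable carriers were not detectable.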
